A study of Rattus norvegicus with 9 samples.

Results

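The miR-181 family was followed in 9 small RNA libraries of rat cornea: 3 of allografts, 3 of isografts and 3 of normal corneas. All 9 carry the same strain label, Wistar, and the same age of 6 weeks, the allografts included. The donor strain and the time since surgery were not given in the sources used. By definition an allograft comes from a genetically different donor and an isograft from a matched one, so an isograft is meant to carry the surgery without the mismatch. The labels do not show this for these donors. The family was taken by name from a table of 765 mature miRNAs and had 5 members: rno-miR-181a-5p, rno-miR-181b-5p, rno-miR-181c-5p, rno-miR-181d-5p and rno-miR-181a-1-3p. Of these, 4 were abundant enough to test, at 5 RPM or more (RPM, a read number scaled to a common library total) in at least 3 libraries, and rno-miR-181c-5p was not. The table held 5 other miR-181 arms, of which 3 could be tested. Each library is called here by its group and its title number (12, 34 or 56), whose meaning is not stated.

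A microRNA precursor is a hairpin that Dicer cuts into a pair of short strands, the 5p and the 3p arm. One arm, the guide, is usually kept in Argonaute and pairs with messenger RNAs through its seed, bases 2 to 8, while the other arm, the passenger, is mostly degraded. The miR-181 guides are 5p arms and are best known from lymphocytes: in the mouse, miR-181a is abundant in developing thymocytes, where it raises the sensitivity of T cell receptor signalling, and it takes part in B cell development. The family is also expressed outside blood, in brain, retina, muscle and vessel endothelium. In the rat it comes from 6 precursor genes in 3 pairs, on chromosomes 13, 3 and 19.

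The mature sequences are shown because the reads of some members differ by so little, and because most 3p arms, unlike the guides, differ between precursor genes. They were taken from RefSeq (GRCr8), written 5′ to 3′ with the seed in capitals. All 5 members and 9 of the 10 miR-181 arms were matched by name. The 4 guides share the seed ACAUUCA, which no other of 693 rat mature miRNAs in that table carries.
rno-miR-181a-5p: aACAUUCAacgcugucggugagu
rno-miR-181b-5p: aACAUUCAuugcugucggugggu
rno-miR-181c-5p: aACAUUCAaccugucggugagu
rno-miR-181d-5p: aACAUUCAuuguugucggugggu
rno-miR-181a-1-3p: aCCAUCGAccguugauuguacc
rno-miR-181b-1-3p: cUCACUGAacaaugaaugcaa
rno-miR-181a-2-3p: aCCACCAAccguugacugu
rno-miR-181c-3p: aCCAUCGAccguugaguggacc

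With positions counted from 1 at the 5′ end, rno-miR-181b-5p differs from rno-miR-181a-5p by A9U, C10U and A21G. The guide rno-miR-181d-5p differs from rno-miR-181b-5p by C12U alone. The guide rno-miR-181c-5p is 1 base shorter than rno-miR-181a-5p, and the first 10 and last 12 bases of the pair are identical. The authors' rule for a read that matches more than 1 of these is not given in the sources used here, so the split between guides is uncertain. The passenger rno-miR-181a-1-3p and its chromosome 19 counterpart rno-miR-181c-3p share the seed CCAUCGA and differ by U16G and U19G. The seeds of rno-miR-181a-2-3p, rno-miR-181b-1-3p and rno-miR-181d-3p are each carried by no other of the 693 miRNAs, and rno-miR-181b-2-3p, not being among those, was not compared.

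On chromosome 13, rno-miR-181a-5p lies at chr13:52037081-52037103, rno-miR-181a-1-3p at chr13:52037121-52037142, rno-miR-181b-5p at chr13:52037263-52037285 and rno-miR-181b-1-3p at chr13:52037303-52037323, all on the plus strand. Both precursor genes, Mir181a-1 and Mir181b1, fall inside the long non-coding RNA gene LOC108352541. On chromosome 3, rno-miR-181a-5p occurs a second time at chr3:43025601-43025623, with rno-miR-181a-2-3p at chr3:43025646-43025664. The precursor genes there, Mir181a2 and Mir181b2, fall within the spans of Nr6a1 and LOC120101539, and the Mir181b2 hairpin also holds the rno-miR-181b-5p sequence. The strand of the spanning genes was not compared. The third pair, Mir181c and Mir181d, lies on chromosome 19 and is spanned by no annotated gene. A read of rno-miR-181a-5p or rno-miR-181b-5p can therefore come from chromosome 13 or 3, whereas rno-miR-181a-1-3p, rno-miR-181a-2-3p and rno-miR-181c-3p differ in sequence and are each encoded at 1 locus. The chromosome 13 arm rno-miR-181b-1-3p could not be compared with rno-miR-181b-2-3p, its chromosome 3 counterpart, so how far their reads can be told apart was not tested. Another miRNA, rno-miR-3570, is encoded on the opposite strand of the chromosome 13 pair and was listed at 0 in all 9 libraries.

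Each library was scaled to between 11001459 and 12153889 reads, as recovered from the step size of the RPM values. The listed miRNAs made up 35.6% ± 10.0 of those reads in allografts, 46.7% ± 9.03 in isografts and 57.6% ± 9.85 in normal corneas (SD, n = 3 each), so RPM depends in part on reads outside the listed miRNAs. Corneal identity was checked with the epithelial miRNAs, a list that includes miR-184 and miR-205: their summed level was 38196 to 92926 RPM in allografts, 162168 to 197817 RPM in isografts and 274973 to 425407 RPM in normal corneas. The leukocyte miRNAs summed to 97004 to 156881 RPM in allografts, 30635 to 74509 RPM in isografts and 7184 to 10345 RPM in normal corneas. Most of that sum was miR-21-5p, which many injured tissues also express. It alone had 89617 to 144610 RPM in allografts, 29201 to 71854 RPM in isografts and 6675 to 9814 RPM in normal corneas. In such bulk tissue fewer cells of a type and less RNA per cell cannot be told apart. No label says whether a group's libraries are from different animals. The p-values hence measure only the spread between these libraries, which may be technical.

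Among the guides, rno-miR-181a-5p was the most abundant, ranking 46 of 765 miRNAs by mean RPM in allografts, 44 in isografts and 36 in normal corneas. In allograft libraries 12, 34 and 56 it had 879, 749 and 1671 RPM, in the isograft libraries 584, 1458 and 1269 RPM, and in the normal libraries 1291, 1484 and 1527 RPM. The groups overlapped, and the grafts were far more spread out than the normal corneas. Means were 1100 ± 499 RPM in allografts, 1104 ± 460 RPM in isografts and 1434 ± 126 RPM in normal corneas (SD, n = 3 each). On the log2(RPM + 1) scale, on which all fold changes are given, allografts differed from normal corneas by -0.47 (95% interval -1.25 to 0.31, adjusted p = 0.328, limma with Benjamini-Hochberg adjustment over 281 miRNAs). Allografts differed from isografts by 0.01 (-0.77 to 0.79, adjusted p = 0.989), and isografts from normal corneas by -0.48 (-1.26 to 0.30, adjusted p = 0.483). Between the grafts the data thus allow a level 0.77 log2 units lower or 0.79 higher.

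The guide rno-miR-181b-5p had 249, 204 and 435 RPM in the allograft libraries, 226, 517 and 395 RPM in the isograft libraries and 337, 391 and 380 RPM in the normal libraries. Its groups overlapped in the same way, with the lowest isograft value again in library 12 and the highest allograft value again in library 56. Allografts differed from normal corneas by -0.39 (-1.18 to 0.39, adjusted p = 0.415, limma) and from isografts by -0.35 (-1.14 to 0.43, adjusted p = 0.483). The isograft difference from normal corneas was -0.04 (-0.82 to 0.74, adjusted p = 0.959).

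The guide rno-miR-181d-5p, made only from chromosome 19, was the only guide with a call. It had 25.9, 21.5 and 50.9 RPM in the allograft libraries, 40.8, 102 and 84.9 RPM in the isograft libraries and 61.3, 55.2 and 54.2 RPM in the normal libraries. Every allograft library was below every normal library, while the allografts and isografts overlapped through allograft library 56 and isograft library 12. In allografts it fell by 1.19 relative to isografts (95% interval -2.04 to -0.33, SE 0.42, adjusted p = 0.0285, limma), about 0.439 of the isograft level. That call was lost when allograft library 12 or 34, or isograft library 34 or 56, was left out (adjusted p = 0.115, 0.159, 0.14 and 0.0987), and with 2 other filters on low values (0.0526 and 0.052). Against normal corneas the allograft difference of -0.87 (-1.73 to -0.02) did not pass the threshold (adjusted p = 0.0854), nor did the isograft difference of 0.31 (-0.54 to 1.17, adjusted p = 0.709).

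The guide rno-miR-181c-5p, from the same chromosome 19 pair, was scarce. It had 1.73, 2.27 and 4.36 RPM in the allograft libraries (19, 25 and 48 reads), 1.40, 3.09 and 2.36 RPM in the isograft libraries (17, 34 and 26 reads) and 1.91, 2.45 and 1.91 RPM in the normal libraries (21, 27 and 21 reads). The groups overlapped, and the level was below the filter, so no test was made. Guide here names the 5p arm, as for the rest of the family. Its partner rno-miR-181c-3p had more reads in every library, at 2.73 to 6.27 per read of rno-miR-181c-5p.

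**Figure D1:**
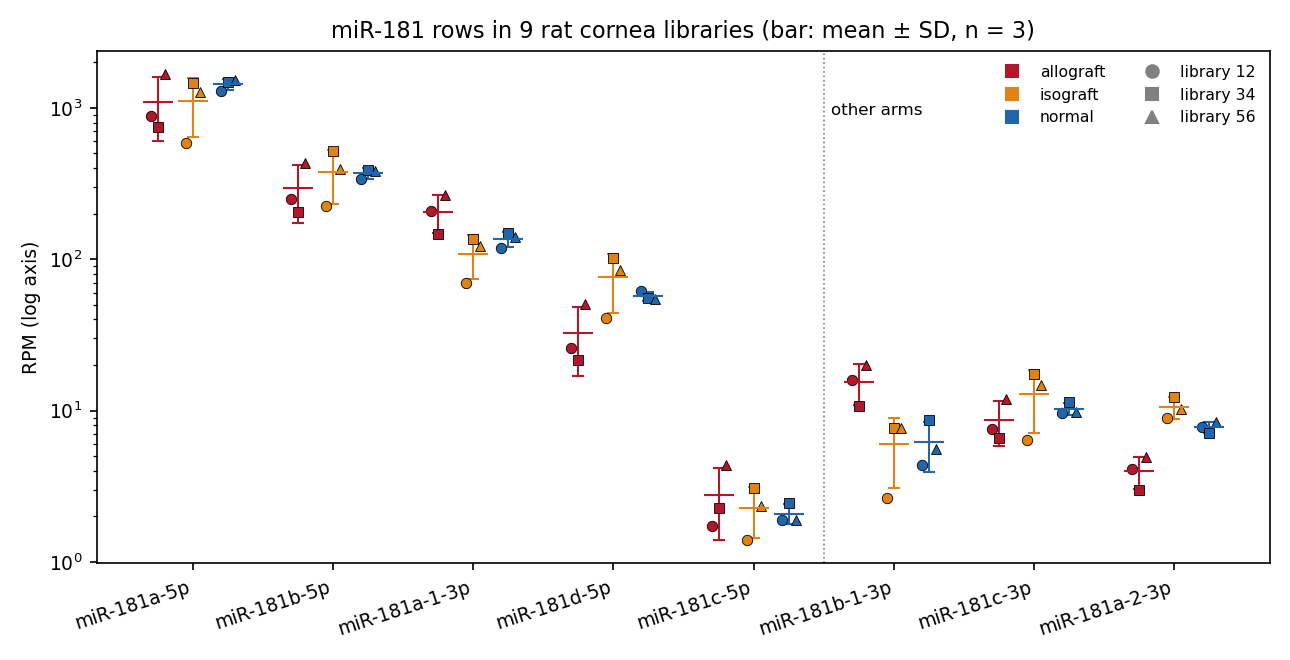
RPM of the 5 members and of 3 further miR-181 arms (log axis) in each library, with allografts in red, isografts in orange and normal corneas in blue; symbols mark the library number and bars the mean ± SD of 3 libraries. The normal libraries of rno-miR-181a-5p lie within 1291 to 1527 RPM, while its graft libraries run from 584 to 1671 RPM, and rno-miR-181a-2-3p separates all 3 groups.

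The passenger rno-miR-181a-1-3p, the only 3p arm among the members, had its highest mean in allografts, unlike the guide cut from the same hairpin. The passenger had 207, 148 and 264 RPM in the allograft libraries, 69.5, 136 and 121 RPM in the isograft libraries and 118, 148 and 140 RPM in the normal libraries. Every allograft library was above every isograft library, and only the lowest allograft library fell among the normal ones. The allograft difference from isografts was 0.93 (95% interval 0.16 to 1.71, SE 0.38, a ratio of 1.91), which missed the threshold (adjusted p = 0.0567, limma). It passed in 7 of 22 alternatives, among them edgeR (1.18, adjusted p = 0.000109) and DESeq2 (1.16, adjusted p = 6.58e-12) on the recovered reads, and it was positive in all 22. Relative to normal corneas the allograft difference was 0.57 (-0.21 to 1.35, adjusted p = 0.230) and the isograft difference -0.36 (-1.14 to 0.41, adjusted p = 0.622).

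Of the 4 members tested, 0 were called in isografts against normal corneas, where 21.4% of all miRNAs tested were called, and 0 in allografts against normal corneas, where 47.3% were. At an unadjusted p below 0.05 these counts were 0 and 1 (rno-miR-181d-5p), where 28.5% and 54.8% of all miRNAs passed. In isografts against normal corneas edgeR and DESeq2 each called 2 of 4 (rno-miR-181a-5p and rno-miR-181a-1-3p, both lower in isografts), where they called 40.6% and 42.3% of all miRNAs. In allografts against normal corneas each called 2 of 4 (rno-miR-181d-5p lower and rno-miR-181a-1-3p higher), where they called 68.7% and 69.4% of all miRNAs. Between allografts and isografts 1 of 4 was called, rno-miR-181d-5p, against a background of 34.5%. The moderated F-test over the 3 groups called 1 of 4, again rno-miR-181d-5p (adjusted p = 0.0447, past the threshold in 10 of 19 alternatives), against 52.3% of all miRNAs. Libraries without overlap between groups were found for 0 of 4 members in isografts against normal corneas (33.5% of all miRNAs), 1 of 4 in allografts against normal corneas (60.1%) and 1 of 4 in allografts against isografts (38.8%). The median difference of the 4 members was -0.20, -0.43 and -0.17 in these 3 comparisons, beside 0.05, -0.14 and -0.29 for all 281 miRNAs. With 4 members, these counts are a description of the family and not a comparison with other miRNAs.

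**Figure D2:**
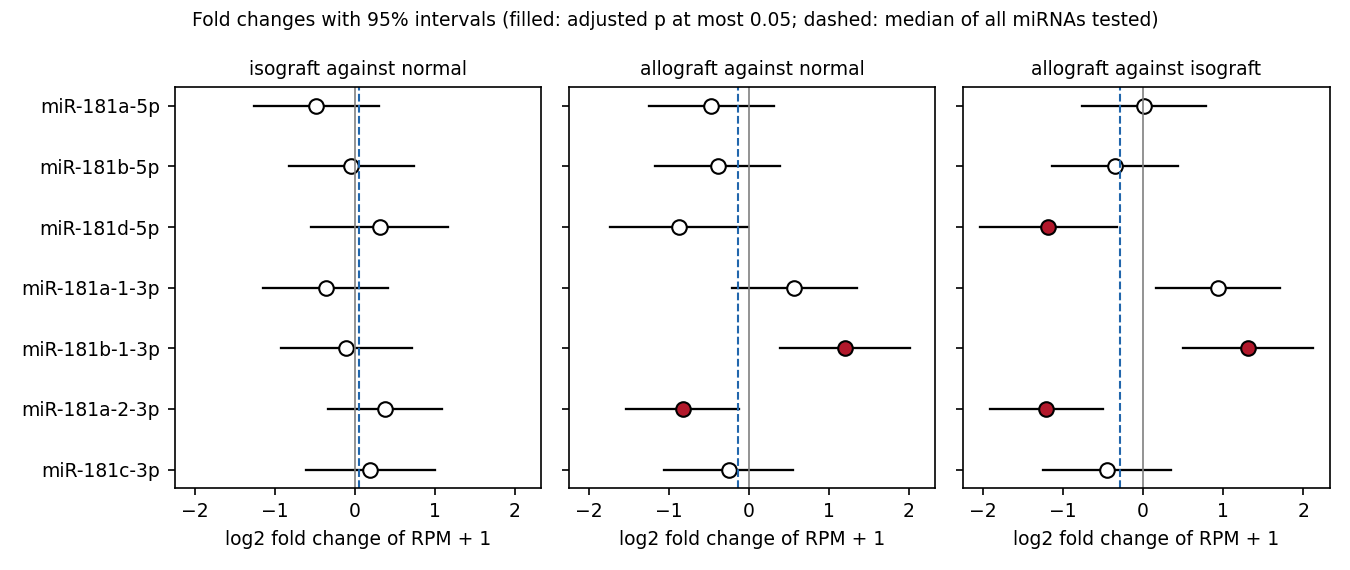
Log2 fold changes of RPM + 1 (x axis) with 95% intervals for the 7 miR-181 arms tested, one panel per comparison; filled points passed an adjusted p of 0.05 and the dashed line is the median of all miRNAs tested. No point is filled in the left panel, and in the right panel rno-miR-181b-1-3p lies at 1.31 while rno-miR-181d-5p and rno-miR-181a-2-3p lie at -1.19 and -1.21.

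The 3p arms outside the 5 members were followed by locus. The arm rno-miR-181b-1-3p, annotated on chromosome 13, had 15.9, 10.7 and 20.0 RPM in the allograft libraries, 2.63, 7.73 and 7.63 RPM in the isograft libraries and 4.36, 8.72 and 5.54 RPM in the normal libraries. All 3 allograft libraries were above all 6 others. It rose in allografts by 1.31 relative to isografts (SE 0.40, adjusted p = 0.0129) and by 1.20 relative to normal corneas (SE 0.40, adjusted p = 0.0142, limma), and the first call held in all 21 alternatives that tested it, the second in 17 of them. From chromosome 3, rno-miR-181a-2-3p had 4.09, 3.00 and 4.91 RPM in the allograft libraries, 8.89, 12.4 and 10.3 RPM in the isograft libraries and 7.81, 7.09 and 8.45 RPM in the normal libraries. The 3 groups did not overlap at all, with allografts lowest and isografts highest. It fell in allografts by 1.21 relative to isografts (SE 0.35, adjusted p = 0.00927), a call lost only without allograft library 34 (adjusted p = 0.0574). Its fall of 0.83 relative to normal corneas (SE 0.35, adjusted p = 0.0499) stood at the threshold and was lost in 13 of 21 alternatives.

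From chromosome 19, rno-miR-181c-3p had 7.54, 6.63 and 11.9 RPM in the allograft libraries, 6.42, 17.4 and 14.8 RPM in the isograft libraries and 9.62, 11.4 and 9.81 RPM in the normal libraries. Its groups overlapped and no comparison was called (adjusted p from 0.386 to 0.813, limma). The arm rno-miR-181d-3p had at most 2 reads in any library and rno-miR-181b-2-3p at most 1, below the 3 reads that a count of 0 still allows, so neither could be compared. No 3p arm could thus be followed for Mir181b2 or Mir181d.

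Ratios between arms within a library do not depend on how the library was scaled, and several separated groups whose RPM overlapped. They are given as descriptions, without a test. The ratio of rno-miR-181a-1-3p to rno-miR-181a-2-3p, the passengers of the same guide from chromosomes 13 and 3, was 50.7, 49.3 and 53.8 in the allograft libraries, 7.82, 11.0 and 11.8 in the isograft libraries and 15.1, 20.9 and 16.6 in the normal libraries. Allograft libraries were all above normal libraries, which were all above isograft libraries. As a share of both passengers, rno-miR-181a-1-3p made up 98.1% ± 0.0836 in allografts, 90.8% ± 1.90 in isografts and 94.5% ± 0.837 in normal corneas (SD, n = 3 each). The allograft values rest on only 45, 33 and 54 reads of rno-miR-181a-2-3p. For the 33 reads of library 34 the 95% counting interval was 2.06 to 4.21 RPM, so the small SD overstates the precision.

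The other chromosome 13 passenger gave the same order for the allografts. The ratio of rno-miR-181b-1-3p to rno-miR-181a-2-3p was 3.85 ± 0.252 in allografts, 0.555 ± 0.232 in isografts and 0.815 ± 0.363 in normal corneas, and its isograft and normal libraries overlapped. Its ratio to the chromosome 19 arm rno-miR-181c-3p was 1.80 ± 0.268 in allografts, 0.457 ± 0.0535 in isografts and 0.593 ± 0.156 in normal corneas. Against that same arm, rno-miR-181a-1-3p stood at 24.0 ± 3.04 in allografts, 8.95 ± 1.65 in isografts and 13.2 ± 1.04 in normal corneas. Both 3p arms annotated on chromosome 13 thus stood higher, relative to rno-miR-181a-2-3p and rno-miR-181c-3p, in each allograft library than in any isograft or normal library. Between themselves they also shifted, with 13.3 ± 0.389 reads of rno-miR-181a-1-3p per read of rno-miR-181b-1-3p in allografts, 20.0 ± 5.65 in isografts and 23.1 ± 5.40 in normal corneas.

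The ratio of guide reads to passenger reads was not fixed either, but reads of rno-miR-181a-5p and rno-miR-181b-5p pool chromosomes 13 and 3. For those guides the ratio within a single hairpin was thus not measured. There were 4.24, 5.07 and 6.33 reads of rno-miR-181a-5p per read of rno-miR-181a-1-3p in the allograft libraries, 8.40, 10.8 and 10.4 in the isograft libraries and 10.9, 10.0 and 10.9 in the normal libraries. All allograft ratios lay below all others, and isografts and normal corneas overlapped. For rno-miR-181b-5p over rno-miR-181b-1-3p the ratio was 18.8 ± 3.04 in allografts, 68.2 ± 17.0 in isografts and 63.6 ± 16.8 in normal corneas. For the chromosome 3 passenger the order was reversed, with 269 ± 64.8 reads of rno-miR-181a-5p per read of rno-miR-181a-2-3p in allografts, 102 ± 31.9 in isografts and 185 ± 22.4 in normal corneas. Since the guide reads of chromosomes 13 and 3 are identical, each of these ratios holds reads of both loci above and of 1 locus below. Both arms of Mir181c come only from chromosome 19. There the ratio of rno-miR-181c-3p to rno-miR-181c-5p was 3.34 ± 0.896 in allografts, 5.49 ± 0.847 in isografts and 4.95 ± 0.252 in normal corneas. All allograft ratios lay below all others, but rno-miR-181c-5p had only 19, 25 and 48 reads in the allograft libraries.

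**Figure D3:**
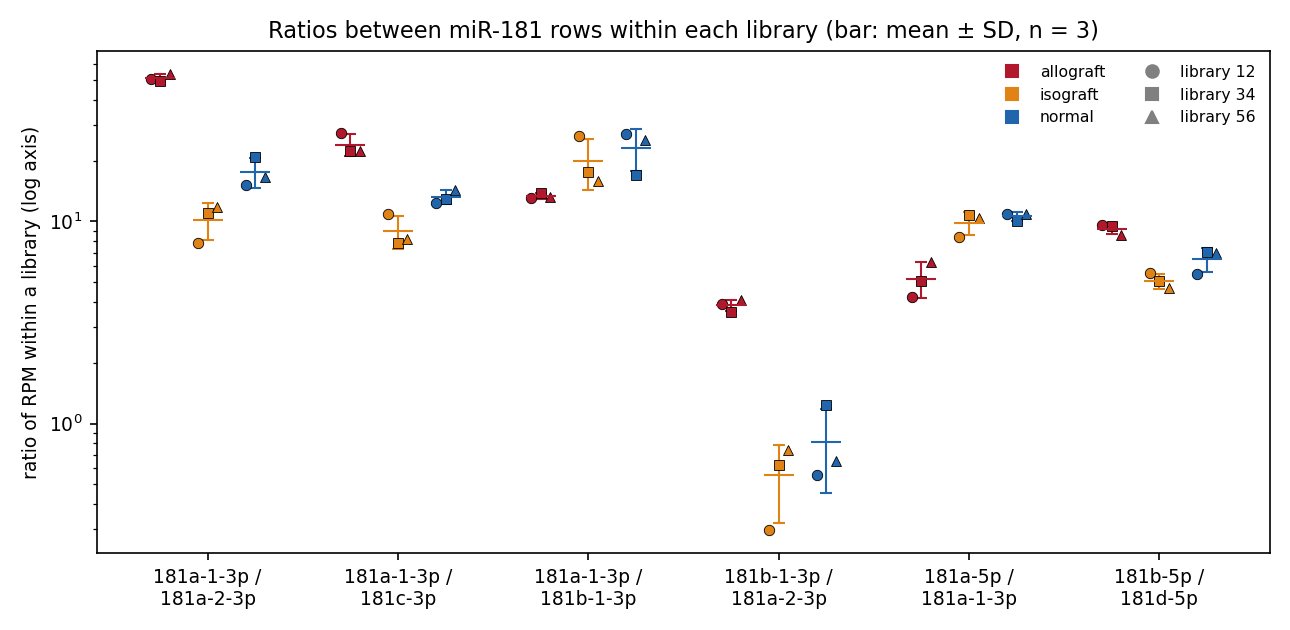
Ratios of RPM between miR-181 arms within each library (log axis), with allografts in red, isografts in orange and normal corneas in blue; symbols mark the library number and bars the mean ± SD of 3 libraries. In the leftmost column the allograft libraries lie at 49.3 to 53.8, the isograft libraries at 7.82 to 11.8 and the normal libraries at 15.1 to 20.9.

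The pool of guides with the shared seed was also described as a whole. The 4 guides summed to 1432 ± 638 RPM in allografts, 1561 ± 636 RPM in isografts and 1862 ± 149 RPM in normal corneas (SD, n = 3 each), and the groups overlapped. As a share of the listed miRNA reads alone they made up 0.392% ± 0.0660 in allografts, 0.324% ± 0.0810 in isografts and 0.327% ± 0.0342 in normal corneas, again with overlap. The order of the groups therefore turned with the denominator.

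Within the pool, rno-miR-181a-5p supplied 76.7% ± 0.639 in allografts, 70.4% ± 1.97 in isografts and 77.0% ± 0.757 in normal corneas. The share was lower in every isograft library than in any other library. The second guide, rno-miR-181b-5p, supplied 20.9% ± 0.723 in allografts, 24.6% ± 1.97 in isografts and 19.9% ± 0.459 in normal corneas. The share of rno-miR-181d-5p was 2.24, 2.20 and 2.35% in the allograft libraries, 4.79, 4.92 and 4.84% in the isograft libraries and 3.62, 2.86 and 2.76% in the normal libraries, without overlap among the 3 groups. It separated the groups although the RPM of allografts and isografts overlapped. The share of rno-miR-181c-5p was at most 0.232% in any library. Because the guides differ by so few bases, reads passing from one to another would alter these shares, and this was not tested.

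**Figure D4:**
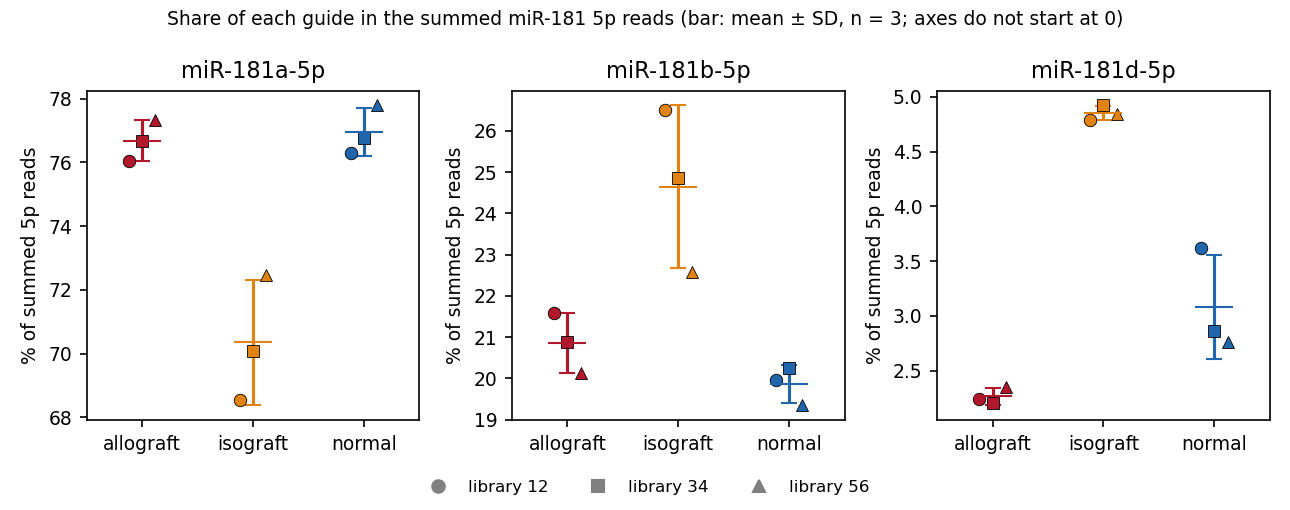
Share of each of the 3 abundant guides in the summed reads of the 4 miR-181 guides (y axes, percent, not starting at 0), by group, with symbols for the library number and bars for the mean ± SD of 3 libraries. The rno-miR-181d-5p share lies at 2.20 to 2.35% in allografts, 4.79 to 4.92% in isografts and 2.76 to 3.62% in normal corneas.

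The direction of the 2 main guides depended on the scaling. Scaling to the listed miRNAs moved the median of all miRNAs by 0.30 in isografts against normal corneas, 0.72 in allografts against normal corneas and 0.40 in allografts against isografts. RPM computed without miR-184, an epithelial miRNA, moved it by -0.28, -0.43 and -0.14, and median-of-ratios scaling by -0.10, 0.13 and 0.22. Scaled to the listed miRNAs, the allograft difference from normal corneas was 0.25 for rno-miR-181a-5p, 0.33 for rno-miR-181b-5p, -0.17 for rno-miR-181d-5p and 1.29 for rno-miR-181a-1-3p. The signs of the first 2 were turned round, and the last was called (adjusted p = 5.22e-05, limma). Without miR-184 the same differences were -0.90, -0.83, -1.30 and 0.14, and those of rno-miR-181a-5p and rno-miR-181d-5p were called (adjusted p = 0.0454 and 0.00886).

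A rescaling shifts all miRNAs of a library alike, so distances from the median of all miRNAs keep nearly the same value by construction. They give the members' place among the miRNAs and are no check of the results. Against normal corneas, in allografts, rno-miR-181a-5p stood -0.33 from that median by RPM and -0.33 when scaled to the listed miRNAs. For rno-miR-181d-5p these distances were -0.73 and -0.75, and for rno-miR-181a-1-3p 0.71 and 0.70. Against isografts, in allografts, rno-miR-181d-5p stood -0.89 from the median both ways, and rno-miR-181a-1-3p 1.23 and 1.24. The calls over all miRNAs split into 65 higher and 68 lower in allografts against normal corneas, but 147 and 43 when scaled to the listed miRNAs and 51 and 110 without miR-184. Between allografts and isografts the split was 38 higher and 59 lower, against 90 and 56 when scaled to the listed miRNAs, 33 and 75 without miR-184 and 81 and 88 by median of ratios. In isografts against normal corneas it was 47 higher and 13 lower, against 112 and 14 when scaled to the listed miRNAs, 38 and 28 without miR-184 and 67 and 50 by median of ratios.

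**Figure D5:**
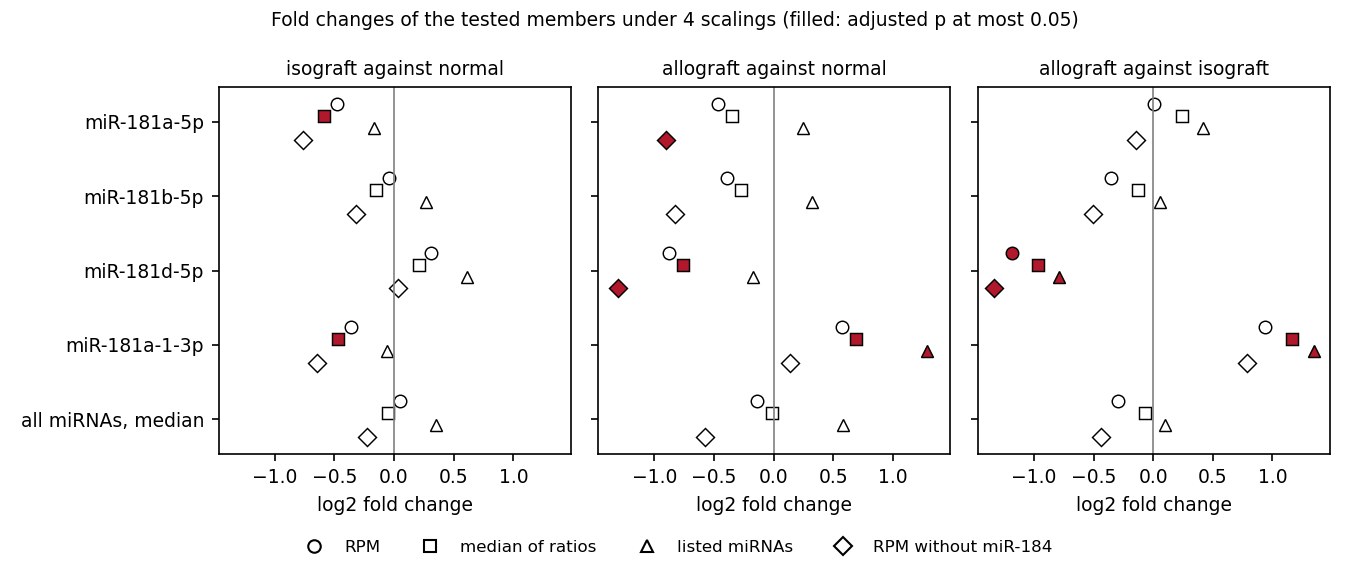
Log2 fold changes (x axis) of the 4 tested members and the median of all miRNAs under 4 scalings, marked by symbol; filled points passed an adjusted p of 0.05. In allografts against isografts rno-miR-181d-5p lies below 0 and is called under all 4 scalings, while rno-miR-181a-1-3p lies above 0 under all 4 and is called under 2.

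Leukocyte miRNAs outside the family were set beside it, since miR-181 is often counted among lymphocyte miRNAs. The B and T cell miRNA miR-150-5p had 989, 863 and 1820 RPM in the allograft libraries, 53.6, 79.7 and 106 RPM in the isograft libraries and 32.7, 30.1 and 26.9 RPM in the normal libraries. It rose in allografts by 5.23 relative to normal corneas (SE 0.39, adjusted p = 3.27e-12) and by 3.89 relative to isografts (SE 0.39, adjusted p = 7.07e-09, limma). The other 3 most abundant of the list also rose in allografts relative to normal corneas: miR-21-5p, which many injured tissues also express, by 3.75, and the NF-kB-induced miR-146a-5p and miR-146b-5p by 3.88 and 3.61. Of the 12 leukocyte miRNAs, 10 rose in isografts and 12 in allografts relative to normal corneas (medians 2.20 and 4.33), and 12 rose in allografts relative to isografts (median 2.20, and 11 of 12 without isograft library 12). Over all miRNAs 47 and 65 were called higher in the first 2 comparisons and 38 in the third. In the same libraries rno-miR-181a-5p and rno-miR-181b-5p stood between -0.48 and 0.01. Other arms in allografts, relative to normal corneas and to isografts, stood at 1.20 and 1.31 (rno-miR-181b-1-3p) and 0.57 and 0.93 (rno-miR-181a-1-3p). Lower were rno-miR-181d-5p (-0.87 and -1.19) and rno-miR-181a-2-3p (-0.83 and -1.21). The family was chosen as a leukocyte-linked one that did not rise with the others, so its contrast with this list was set by that choice. The comparisons share their normal or isograft libraries, and the difference between the leukocyte list and the family was not tested.

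Other cell type lists also held called miRNAs. Over all 281 miRNAs tested, 65 were called higher and 68 lower in allografts relative to normal corneas. In isografts relative to normal corneas 47 were higher and 13 lower, and in allografts relative to isografts 38 and 59. Of 13 epithelial miRNAs, 11 fell in allografts relative to normal corneas (median -1.78), 4 in isografts relative to normal corneas (median -0.70, with 9 by median of ratios, 2 without isograft library 12 and 0 without normal library 34 or 56) and 5 in allografts relative to isografts (median -0.92, with 12 by median of ratios, 10 of 12 tested without miR-184, and 12 without isograft library 12 or without allograft library 56). Of 10 stromal and fibroblast miRNAs, 7 rose in allografts and 8 in isografts relative to normal corneas (medians 1.90 and 3.02), and 3 fell in allografts relative to isografts (median -0.91). That last count ran from 0 (without allograft library 34 or isograft library 34) to 8 (without isograft library 12), and from 1 to 6 under the other scalings. Both endothelial arms, miR-126a-3p and miR-126a-5p, rose in both grafts relative to normal corneas (medians 3.16 in allografts and 3.04 in isografts) and 0 of 2 were called between the grafts. Of 10 neuronal and retinal miRNAs 6 were tested, with 1 higher and 3 lower in allografts and 0 higher and 2 lower in isografts relative to normal corneas (the last count 0 without normal library 34 or 56, and 1 without normal library 12). Of 4 red blood cell miRNAs 2 were tested, and 1 fell in each graft, a count of 0 to 2 with 1 library left out. The part that these cell types play in the miR-181 values was not tested.

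Profiles over the 9 libraries were compared by the root mean square difference of centred log2(RPM + 1) values, among 274 tested miRNAs outside the family. Nearest to rno-miR-181a-5p were miR-361-5p (0.14), miR-674-5p (0.14) and miR-26b-5p (0.16), beside a median of 0.56 for all. Nearest to rno-miR-181b-5p were miR-24-1-5p (0.15), let-7d-5p (0.15) and miR-151-5p (0.16), beside a median of 0.49. The chromosome 19 guide rno-miR-181d-5p was nearest to miR-152-3p (0.23), let-7b-5p (0.25) and miR-27b-3p (0.26), beside a median of 0.62. The passenger rno-miR-181a-1-3p was nearest to miR-7a-1-3p (0.15), miR-30b-3p (0.19) and miR-425-5p (0.23), beside a median of 0.75. No leukocyte miRNA of the list was among these neighbours, but that list holds only 12 of the 274 miRNAs compared. One neighbour, miR-152-3p, is in the stromal list. Its mean was lower in allografts (1215 ± 399 RPM) than in normal corneas (1759 ± 163 RPM), though their libraries overlapped, whereas most of that list rose.

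Inside the family, the closest 3p arms were the chromosome 13 pair, the only 3p arms of 1 locus that could be compared. The arms rno-miR-181a-1-3p and rno-miR-181b-1-3p differed by 0.32. The chromosome 3 passenger rno-miR-181a-2-3p lay 0.91 and 1.15 from them but 0.43 from the chromosome 19 arm rno-miR-181c-3p. It lay 0.31 from the chromosome 19 guide rno-miR-181d-5p. The guide rno-miR-181b-5p lay closest to the chromosome 19 arm rno-miR-181c-3p (0.15). The main guides rno-miR-181a-5p and rno-miR-181b-5p differed by 0.21, and rno-miR-181a-5p lay 0.50 from rno-miR-181a-1-3p, its partner in the hairpin. The points share libraries, depth and, for guides, nearly identical sequence, so these distances carry no p.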

How the data were processed

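The authors deposited RPM values, which set each library to the same total, of 765 mature miRNAs in 9 small RNA libraries, and each column matched 1 library by title (0 unmatched). Per the labels' protocols, Trizol was used and a TruSeq small RNA kit took 1 ug of RNA per library. The submitters' processing notes name bcl2fastq, BWA and rn6. Not given in the sources used here are tool versions, trimming, miRNA annotation and the handling of reads that match several miRNAs.

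The RPM values moved in fixed steps, and 100% of them came out as whole reads within a tolerance of 0.1 read. A count of 3 reads is 0.247 to 0.273 RPM. Libraries of a group differed beyond counting error (chi-square over degrees of freedom of 70.5 to 810), so none was merged with another as a repeated deposit. This does not show whether they are repeat preparations of 1 sample. The values are not counts, so the test was limma 3.58.1 (R 4.3.3; empirical Bayes with a variance trend) on log2(RPM + 1) over all 9 libraries, with 6 residual degrees of freedom. Testing covered the 281 miRNAs that reached 5 RPM in 3 or more libraries, with Benjamini-Hochberg adjustment over them and a threshold of 0.05. In isografts against normal corneas limma called 60 miRNAs, and on the recovered reads edgeR 4.0.16 (quasi-likelihood) called 114 and DESeq2 1.42.0 called 119. For allografts against normal corneas these counts were 133, 193 and 195, and for allografts against isografts 97, 163 and 171. In all, 22 alternatives were run: other pseudocounts, filters, scalings, fits and tools, a replicate block, and each library left out. The model was first tested on simulated data. Fold changes of log2(RPM + 1) understate the change of low miRNAs.

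The named miRNAs are the 5 members, all other miR-181 arms, the 4 most abundant of the leukocyte list and the 3 nearest profiles of each tested member. Members and lists were chosen with earlier results of these data known. Sequences and positions come from RefSeq (GRCr8), matched by name, and no position was converted between builds.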

Additional observations from a re-analysis of the deposited data

Results flagged for a closer look

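For 3 of 7 miR-181 arms tested the effect of an allograft differed from that of an isograft, both measured against the same normal corneas, by a test of the difference itself (allografts against isografts, limma, Benjamini-Hochberg adjusted), by which 34.5% of all miRNAs were called. The passenger rno-miR-181b-1-3p differed by 1.3086 on the log2 scale (adjusted p = 0.0129), being higher in 3 of 3 allograft libraries than in any isograft library. The passenger rno-miR-181a-2-3p differed by -1.2101 (adjusted p = 0.00927), being lower in 3 of 3 allograft libraries than in any isograft library. The guide rno-miR-181d-5p differed by -1.1868 (adjusted p = 0.0285, past the threshold in 15 of 22 alternatives), with allograft library 56 above isograft library 12 and the other allograft libraries below all isograft libraries.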

How the results depend on the processing

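Counts of called miRNAs moved with the tool, the filter, the scaling and single libraries; the cause was not tested. In isografts against normal corneas 60 became 30 with a filter at 50 RPM, 117 by median of ratios, 126 scaled to the listed miRNAs, 114 with edgeR and 119 with DESeq2. In allografts against normal corneas 133 became 63 with the filter at 50 RPM. Between allografts and isografts 97 became 44 with that filter, 169 by median of ratios, 146 scaled to the listed miRNAs, 163 with edgeR, 171 with DESeq2 and 42 to 146 with 1 library left out (52 without allograft library 12, 42 without allograft library 34, 146 without isograft library 12). The F-test count of 147 became 68 with that filter and 95 to 187 with 1 library left out (95 without allograft library 34). The filter at 50 RPM leaves 152 miRNAs to test.

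Among members, rno-miR-181a-5p in isografts against normal corneas passed by median of ratios (-0.59), edgeR (-0.56) and DESeq2 (-0.56). In allografts against normal corneas it was 0.25 scaled to the listed miRNAs and passed without miR-184 (-0.90). Between allografts and isografts it was -0.14 without miR-184 and -0.40 to 0.26 with 1 library left out. For rno-miR-181b-5p, scaling to the listed miRNAs gave 0.27 in isografts and 0.33 in allografts against normal corneas and 0.0595 in allografts against isografts, and leaving out 1 library gave -0.30 to 0.29 in isografts against normal corneas. None of these turned values passed the threshold.

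For rno-miR-181a-1-3p, calls appeared in isografts against normal corneas by median of ratios (-0.47), edgeR (-0.46) and DESeq2 (-0.46). In allografts against normal corneas they appeared by median of ratios (0.69), listed scaling (1.29), edgeR (0.71) and DESeq2 (0.70). Relative to isografts they appeared by median of ratios (1.16), listed scaling (1.35), robust variance (0.93), edgeR (1.18) and DESeq2 (1.16), and leaving out 1 library gave 0.64 to 1.15, with a call only without isograft library 34 (1.12). For rno-miR-181d-5p in allografts against normal corneas, calls appeared by median of ratios (-0.76), without miR-184 (-1.30), with only those groups fitted (-0.87), with edgeR (-0.76) and DESeq2 (-0.77), and with 1 library left out the range was -1.23 to -0.63, called without allograft library 56 or isograft library 12. Relative to isografts its call was lost without a filter (-1.19), at 50 RPM (-1.19) and with only those groups fitted (-1.19), and the range with 1 library left out was -1.58 to -0.92.

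Among the other arms, rno-miR-181c-3p changed sign without being called in isografts against normal corneas, at -0.0657 without miR-184 and -0.0570 to 0.60 with 1 library left out, and in allografts against normal corneas at 0.39 with listed scaling. Likewise rno-miR-181b-1-3p in isografts against normal corneas was 0.14 with listed scaling and -0.32 to 0.31 with 1 library left out.

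With the title number as a replicate block, rno-miR-181a-1-3p in allografts against isografts was called (0.93, adjusted p = 0.0394), and 66, 143 and 112 miRNAs were called in the 3 comparisons. Deviations of same-numbered libraries correlated between -0.51 and 0.56 over 9 pairs and those of other libraries between -0.72 and 0.60 over 18, so the numbers were not taken to pair the samples. Depth limits rno-miR-181c-5p (17 to 48 reads) and the arms with at most 2 reads. It also limits rno-miR-181a-2-3p (45, 33 and 54 reads in the allograft libraries) and rno-miR-181b-1-3p (32 reads in isograft library 12). Groups of 3 libraries limit all arms.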
